A study of Mus musculus with 6 samples.

Results

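The enzymes that methylate lysine 9 of histone H3 (H3K9), with the proteins that recruit or stabilise G9a and Setdb1, were examined as transcripts in mouse leukaemia cells treated with a G9a inhibitor. The set was chosen by name: Ehmt2 (G9a), Ehmt1 (GLP), Wiz, Zfp644, Suv39h1, Suv39h2, Setdb1, Setdb2, Trim28 and Atf7ip. A gene counted as measured when a probe set of the array named it and no other gene, and the probe set with the highest mean over the arrays stood for it. That gave 9 of the 10 genes, out of 19937 genes measured in all. The probe annotation used here names no probe set for Suv39h1, which was not analysed here.

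RNA came from mouse haematopoietic stem and progenitor cells made leukaemic by expression of HoxA9 and Meis1, called A9M cells, and was hybridised to Affymetrix arrays. The cells were kept in serum-containing medium with the cytokines IL3, IL6 and SCF and received UNC0638 (3 arrays) or the solvent DMSO (3 arrays) for 5 days. UNC0638 is a small molecule that blocks the catalytic activity of G9a and GLP. Every sample, DMSO included, carries HoxA9 and Meis1. The labels give neither the dose nor the origin of the samples within a group; if they share a culture, the p-values reflect technical spread alone. The series asks which gene expression depends on the methyltransferase activity of G9a. For these genes the comparison asks whether the inhibited enzymes, the other enzymes of the same mark and their partners differ as transcripts when the cells are given the inhibitor. It reads no protein and no histone mark.

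As background, G9a and GLP form a heterodimer through their SET domains and place mono- and dimethylation on H3K9, mostly in euchromatin. The zinc finger proteins Wiz and Zfp644 bind the pair and help bring it to DNA. Suv39h1 and Suv39h2 place trimethylation in pericentric heterochromatin. Setdb1 is brought to retroelements and zinc finger gene clusters by Trim28 (KAP1), which KRAB zinc finger proteins hold on DNA, and Atf7ip keeps Setdb1 in the nucleus and protects it from degradation. In blood progenitors the repressor Gfi1 is known to bring G9a to its target genes.

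None of the 9 measured genes passed the test over all genes, in either direction, against 0.672% of all genes (limma, adjusted p under 0.05), and 3 had an unadjusted p under 0.05, against 12.7% of all genes. Setdb1, Ehmt2 and Trim28 had lower intensities on all 3 UNC0638 arrays than on any DMSO array, as did 7.40% of all genes. Their means were lower by 22.6%, 17.9% and 11.2%. Atf7ip, the partner that stabilises Setdb1, had a mean 27.4% higher, with groups that overlapped. Ehmt1, Wiz, Zfp644, Suv39h2 and Setdb2 differed from their DMSO means by at most 7.86%.

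The promoters of the 4 genes with the largest differences are shown so that the genes can be placed. Each line holds the 250 bases before the first start that RefSeq lists (build GRCm38.p6), 5′ to 3′ on the strand of the gene. Capitals mark matches, on either strand, to 4 motifs. These are the E-box CACGTG, the GC box GGGCGG, the CCAAT box CCAAT and the ETS core CCGGAA. The windows lie at chr17:34898224-34898473, plus strand, for Ehmt2; chr3:95357203-95357452, minus strand, for Setdb1; chr7:13023902-13024151, plus strand, for Trim28; and chr6:136518601-136518850, plus strand, for Atf7ip.
Ehmt2: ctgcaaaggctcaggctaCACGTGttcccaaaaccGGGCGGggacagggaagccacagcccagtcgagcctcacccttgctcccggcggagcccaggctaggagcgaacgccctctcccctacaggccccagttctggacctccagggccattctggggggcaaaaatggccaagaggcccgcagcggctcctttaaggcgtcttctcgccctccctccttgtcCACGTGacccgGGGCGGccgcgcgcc
Setdb1: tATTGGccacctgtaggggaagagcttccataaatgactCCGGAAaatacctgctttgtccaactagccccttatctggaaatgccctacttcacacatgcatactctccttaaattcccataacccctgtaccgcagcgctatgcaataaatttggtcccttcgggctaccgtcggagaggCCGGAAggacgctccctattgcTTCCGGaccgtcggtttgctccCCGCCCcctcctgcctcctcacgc
Trim28: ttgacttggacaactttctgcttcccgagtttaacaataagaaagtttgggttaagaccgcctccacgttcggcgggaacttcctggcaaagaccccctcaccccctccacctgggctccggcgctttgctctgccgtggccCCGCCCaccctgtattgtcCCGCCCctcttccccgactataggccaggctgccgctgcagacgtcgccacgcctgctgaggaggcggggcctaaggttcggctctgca
Atf7ip: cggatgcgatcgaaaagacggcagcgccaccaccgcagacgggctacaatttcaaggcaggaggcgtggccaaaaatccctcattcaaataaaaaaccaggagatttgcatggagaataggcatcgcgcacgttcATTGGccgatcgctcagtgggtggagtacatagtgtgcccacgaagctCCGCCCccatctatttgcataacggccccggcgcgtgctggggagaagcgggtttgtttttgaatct

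The Ehmt2 window held 2 E-boxes and 2 GC boxes. The Setdb1 window held 3 ETS cores, 1 GC box and 1 CCAAT box, that of Trim28 held 2 GC boxes, and that of Atf7ip held 1 GC box and 1 CCAAT box. No 2 matches overlapped in these windows. Of 32851 windows of the same length, 6.02% held an E-box, 12.0% an ETS core, 32.7% a GC box and 33.8% a CCAAT box. Over all 16 windows that the table lists for the 10 genes, 2 held an E-box, both of them of Ehmt2, and 12 held a GC box. CpG dinucleotides numbered 18 for Ehmt2, 13 for Setdb1, 17 for Trim28 and 20 for Atf7ip, against a median of 6 over all windows (quartiles 2 and 16). A match of letters is a description of the sequence, and the motifs were chosen with the results known.

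Values are the processed intensities of the authors' table, on a linear scale, and differences were tested as log2(intensity + 16). All 9 genes had a mean above that of the median gene. The pseudocount shrinks the tested difference more for Ehmt2, the dimmest of the 9, than for a brighter gene. Array medians over all probe sets were 52.7 to 54.9 in UNC0638 and 50.4 to 52.5 in DMSO. Probes of different genes bind with different strength, so intensities are compared within a gene only. In bulk RNA, fewer cells of a type and less RNA per cell cannot be told apart.

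Ehmt2 encodes G9a, the main target of UNC0638. Its intensities were 98.7, 99.8 and 103 in UNC0638, against 112, 137 and 119 in DMSO. The UNC0638 arrays lay close together and all below the DMSO arrays, which spread more widely. The means were 100.6 ± 2.40 in UNC0638 and 123 ± 13.02 in DMSO (SD, n = 3 each). The log2 difference of -0.25 (SE 0.089, 95% interval -0.45 to -0.042) did not pass over all genes (limma, adjusted p = 0.293, unadjusted p = 0.0234).

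Ehmt1 encodes GLP, the other partner of the heterodimer and the second target of the compound. Its intensities were 160, 183 and 165 in UNC0638, against 162, 187 and 174 in DMSO, and the groups overlapped over nearly their whole range. The log2 difference was -0.040 (SE 0.088, 95% interval -0.24 to 0.16, limma adjusted p = 0.92). The interval holds 0 and does not show equal levels.

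Wiz, a zinc finger protein that binds both SET-domain enzymes, had intensities of 138, 147 and 135 in UNC0638, against 160, 137 and 133 in DMSO. Replicate 1 of DMSO was the highest of the 6 and the rest overlapped (log2 difference -0.025, SE 0.090, limma adjusted p = 0.952). Zfp644, the second zinc finger partner, had 309.8, 357 and 402 in UNC0638, against 353, 312 and 332 in DMSO. The UNC0638 arrays covered a range that held all 3 DMSO arrays (log2 difference 0.092, SE 0.11, limma adjusted p = 0.806).

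**Figure D1:**
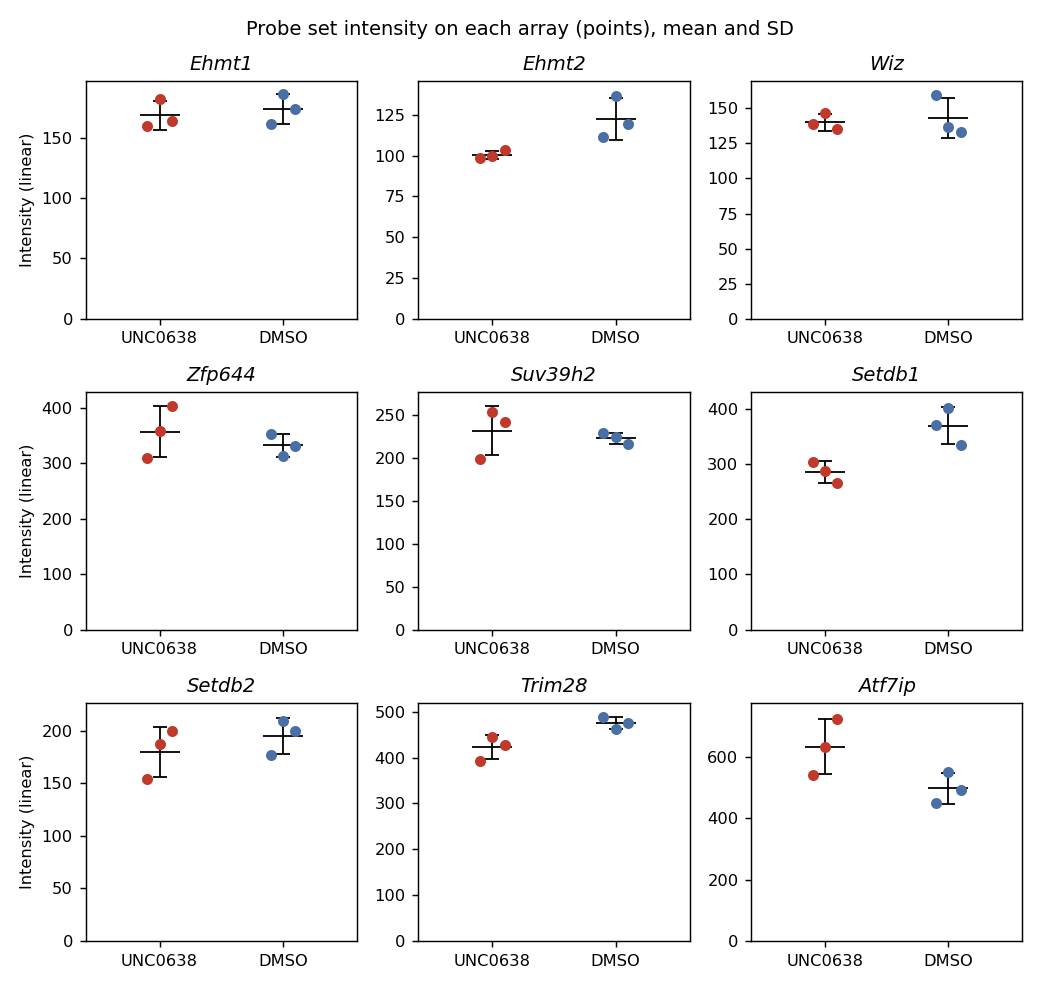
Probe set intensity (linear scale, from 0) of each of the 9 measured genes, a panel each, with UNC0638 arrays left in red and DMSO arrays right in blue; the line and bar give mean and SD of 3 arrays. Ehmt2, Setdb1 and Trim28 have all 3 UNC0638 points below the DMSO points, with means of 100.6 against 123, 286 against 369 and 423 against 476.

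Suv39h2, an enzyme of constitutive heterochromatin, had intensities of 199, 253 and 242 in UNC0638, against 228, 223 and 216 in DMSO. The DMSO arrays lay within a narrow band, with UNC0638 arrays on both sides of it (log2 difference 0.044, SE 0.099, limma adjusted p = 0.924). Setdb2, a less studied relative of Setdb1, had 154, 187 and 199 in UNC0638, against 176, 209 and 199.9 in DMSO. Its lowest array was UNC0638 replicate 1, and the groups overlapped (log2 difference -0.11, SE 0.11, limma adjusted p = 0.766).

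Setdb1, which trimethylates H3K9 at retroelements, showed the lowest p of the set. Its intensities were 304, 287 and 265 in UNC0638, against 370.3, 402 and 335 in DMSO. Every UNC0638 array lay below every DMSO array. The means were 286 ± 19.2 in UNC0638 and 369 ± 33.5 in DMSO (SD, n = 3 each), and the log2 difference was -0.35 (SE 0.094, 95% interval -0.56 to -0.14). It did not pass over all genes (limma, adjusted p = 0.154, unadjusted p = 0.00520). In the gene table Cers2, a ceramide synthase gene, overlaps Setdb1, and its probe set had a log2 difference of 0.051 (SE 0.092, limma adjusted p = 0.892).

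Trim28, the scaffold that brings Setdb1 to KRAB zinc finger proteins, had intensities of 394, 446 and 428 in UNC0638, against 489, 463 and 475 in DMSO. The highest UNC0638 array stayed below the lowest DMSO array by a small margin. The log2 difference was -0.17 (SE 0.080, 95% interval -0.35 to 0.016, limma adjusted p = 0.454).

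Atf7ip, the nuclear partner of Setdb1, had intensities of 543, 634 and 724 in UNC0638, against 449, 551 and 492 in DMSO. The lowest UNC0638 array lay just below the highest DMSO array, so the groups overlapped by that pair. The means were 634 ± 90.6 in UNC0638 and 497 ± 51.2 in DMSO (SD, n = 3 each), with a log2 difference of 0.34 (SE 0.12, 95% interval 0.059 to 0.61, limma adjusted p = 0.293, unadjusted p = 0.0231). It was the only one of the 9 with a second single-gene probe set. That probe set was dimmer, with 74.2, 74.97 and 108 in UNC0638, against 53.9, 67.3 and 74.3 in DMSO, and gave a log2 difference of 0.32 (SE 0.15, limma adjusted p = 0.448 over all single-gene probe sets). Both probe sets pointed the same way, and both had groups that overlapped by 1 pair of arrays.

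**Figure D2:**
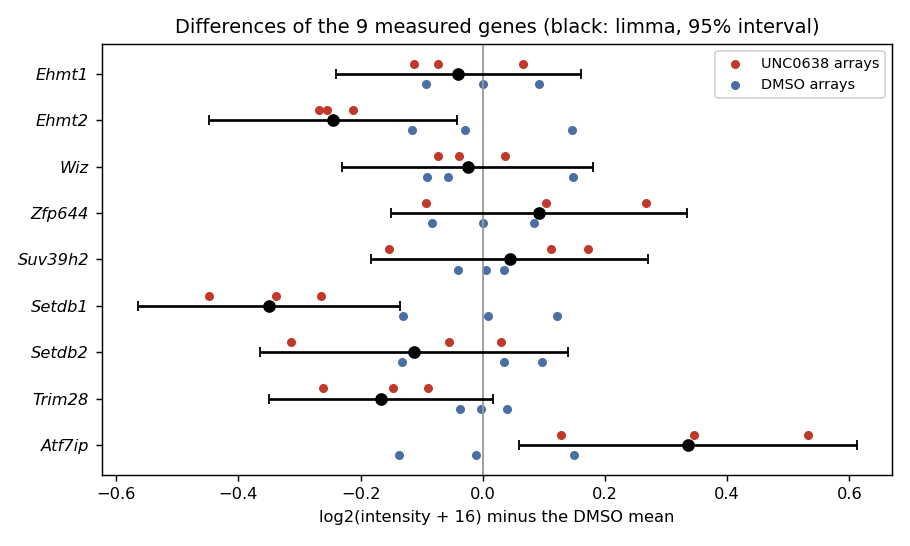
Differences of the 9 measured genes, as log2(intensity + 16) minus the DMSO mean; black points and bars are the limma estimate and its 95% interval, red points above them the UNC0638 arrays and blue points below them the DMSO arrays. The intervals of Ehmt2, Setdb1 and Atf7ip leave out 0 before adjustment over all genes, and adjusted p was 0.293, 0.154 and 0.293.

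Of the 9 genes, 3 had groups that did not overlap, all with UNC0638 lower. Over all genes 17.0% had groups that did not overlap, 7.40% with UNC0638 lower and 9.59% with UNC0638 higher. An unadjusted p under 0.05 was found for 2 of the 9 genes with UNC0638 lower and 1 with UNC0638 higher, against 6.21% and 6.47% of all genes. With 9 genes these shares rest on few counts. Differences below 0 were found in 6 of the 9, against 46.1% of all genes. The median log2 difference of the 9 was -0.040, against 0.012 over all genes, and the median of its size without sign was 0.11, against 0.089.

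Partners can also be set against each other within an array, where a difference in overall brightness cancels. Such a ratio shows unequal change between 2 genes and says nothing of which of them is more abundant. Of 6 pairs planned, 5 could be formed, since Suv39h1 was not measured. With 3 arrays against 3, an exact permutation test cannot give a two-sided p below 0.1.

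The log2 ratio of Ehmt2 to Ehmt1, relative to its DMSO mean, was -0.16, -0.32 and -0.14 on the UNC0638 arrays and -0.023, 0.054 and -0.030 on the DMSO arrays. All UNC0638 ratios lay below the DMSO ratios, with a mean difference of -0.21 (exact permutation test, p = 0.1, adjusted p = 0.25 over 5 pairs). That difference was -0.23 with a pseudocount of 1 and -0.15 with a pseudocount of 64. The ratio of Setdb1 to Atf7ip was -0.39, -0.68 and -0.98 on the UNC0638 arrays and 0.15, -0.027 and -0.12 on the DMSO arrays. The mean difference was -0.69, and again no array of a group reached into the other (exact permutation test, p = 0.1, adjusted p = 0.25). It was the largest difference of the 5 pairs, with -0.35 for Setdb1 and 0.34 for Atf7ip behind it.

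The other 3 ratios had groups that overlapped. The difference was -0.12 for Wiz over Zfp644, -0.24 for Setdb1 over Setdb2 and -0.18 for Setdb1 over Trim28 (exact permutation tests, adjusted p = 0.6, 0.375 and 0.375). Leaving out 1 array moved them by over 1.5 times. Wiz over Zfp644 was at -0.20 without UNC0638 replicate 1 and -0.0057 without UNC0638 replicate 3, and Setdb1 over Setdb2 at -0.38 and -0.12 without the same arrays. Setdb1 over Trim28 was at -0.10 without DMSO replicate 2.

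**Figure D3:**
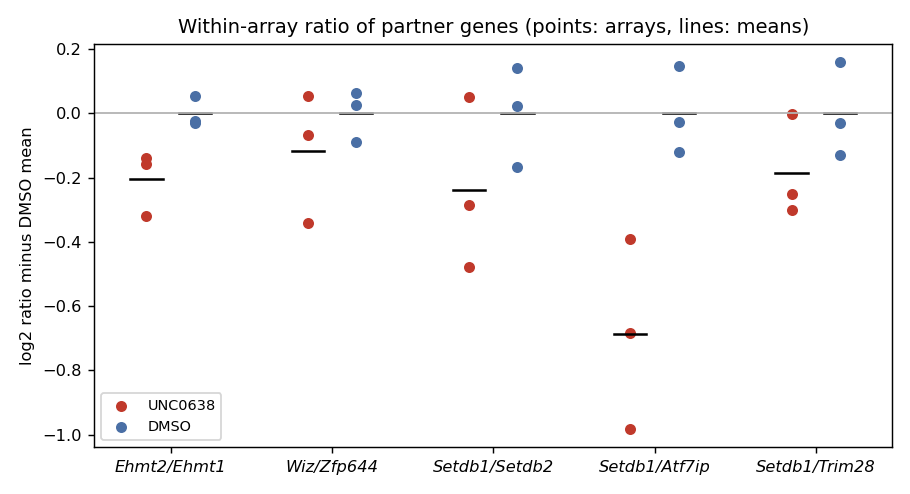
Within-array log2 ratio of partner genes minus its DMSO mean, with UNC0638 arrays left in red, DMSO arrays right in blue and lines at the group means. Groups are apart for Ehmt2/Ehmt1 (mean difference -0.21) and Setdb1/Atf7ip (-0.69) and overlap for the other 3 pairs.

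The wider pathway was followed in 5 lists of 68 genes, of which 62 were measured. In them 1 gene rose and 0 fell over all genes tested, against 0.371% and 0.301% of all genes. The gene was Kdm7a, a demethylase that removes dimethyl groups from H3K9 and H3K27. Its intensities were 451, 509 and 543 in UNC0638, against 323, 261 and 290.1 in DMSO, with wide space between the groups. The means were 501 ± 46.4 in UNC0638 and 291 ± 30.9 in DMSO (SD, n = 3 each), and the log2 difference was 0.75 (SE 0.10, limma adjusted p = 0.0258). In 15 other settings the log2 difference of Kdm7a lay between 0.67 and 0.82. Its call was lost in 7 of them, with adjusted p of 0.0713 with the replicate block, of 0.0559 with a pseudocount of 64, of 0.0682, 0.106 and 0.0851 without UNC0638 replicates 1, 2 and 3, and of 0.0811 and 0.0719 without DMSO replicates 2 and 3.

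Among the 11 measured H3K9 demethylases the median log2 difference was 0.11, with 7 above 0 and 4 below. Kdm3a, which removes mono- and dimethylation from H3K9, had 220 ± 24.1 in UNC0638 and 261 ± 4.91 in DMSO (log2 difference -0.24, limma adjusted p = 0.326). Its relative Kdm3b had 817 ± 30.6 in UNC0638 and 716 ± 12.4 in DMSO (log2 difference 0.18, limma adjusted p = 0.346). Neither passed the test, although in both genes the groups did not overlap, as in 17.0% of all genes. Kdm3a and Kdm3b were named after their values were seen.

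The 21 genes that recruit G9a and GLP or are found with them on chromatin were all measured and 0 passed the limma test, with 7 at an unadjusted p under 0.05, which 12.7% of all genes reached. Of the 21, 7 had UNC0638 arrays wholly below the DMSO arrays and 1 had them wholly above, shares to be read against the 7.40% and 9.59% of all genes. The median log2 difference of the list was -0.054. Hells, a chromatin remodeller needed for DNA methylation, had 437 ± 24.5 in UNC0638 and 589 ± 55.3 in DMSO (log2 difference -0.41, limma adjusted p = 0.105). Zfp518b, whose human relative binds G9a and GLP, had 86.9 ± 1.63 in UNC0638 and 68.2 ± 4.79 in DMSO (log2 difference 0.29, limma adjusted p = 0.155).

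L3mbtl2, a methyl-lysine reader, had intensities of 128, 117 and 131 in UNC0638, against 174, 155 and 150.0 in DMSO (log2 difference -0.31, limma adjusted p = 0.164). E2f6, a DNA-binding repressor, had 199, 118 and 215 in UNC0638, against 319, 280.4 and 221 in DMSO (log2 difference -0.60, limma adjusted p = 0.269). Both DMSO and UNC0638 arrays were widely spread for E2f6, and the nearest arrays of the groups almost met.

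Pcgf6, a Polycomb ring finger protein, had 130, 137 and 149.5 in UNC0638, against 149.7, 219 and 222 in DMSO (log2 difference -0.44, limma adjusted p = 0.232). For Pcgf6 too the nearest arrays of the groups almost met, and the DMSO arrays were widely spread. Mga, a partner of Max, had 283, 277 and 319 in UNC0638, against 351, 340 and 384 in DMSO (log2 difference -0.28, limma adjusted p = 0.233). The remaining 2 genes with UNC0638 arrays wholly below were Uhrf1, which recruits the maintenance DNA methyltransferase, at -0.31, and the deacetylase Hdac1 at -0.16. E2f6, Pcgf6, Mga, Uhrf1 and Hdac1 were singled out after their values were seen, and that maintenance enzyme, Dnmt1, had a log2 difference of 0.053 (limma adjusted p = 0.881).

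Of 14 measured readers of methylated H3K9 and members of the HUSH complex, which works with Setdb1, 0 passed the limma test. At an unadjusted p under 0.05 lay 1 of them, against 12.7% of all genes. The histone chaperone Daxx had 153 ± 13.8 in UNC0638 and 204 ± 26.2 in DMSO (log2 difference -0.38, limma adjusted p = 0.172). Its partner Atrx had 999.7 ± 110 in UNC0638 and 854 ± 47.3 in DMSO (log2 difference 0.22, limma adjusted p = 0.403). The dim gene Atf7ip2, a relative of Atf7ip, had 16.6 ± 2.01 in UNC0638 and 13.5 ± 0.754 in DMSO (log2 difference 0.14, limma adjusted p = 0.535). The median of the list was -0.070.

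Of 13 measured relatives and adaptors of Trim28 and factors of the SUMO pathway, which links Trim28 to Setdb1, 0 passed the limma test. An unadjusted p under 0.05 was found for 2 of them, against 12.7% of all genes. Sumo3, a SUMO protein, had 772 ± 64.3 in UNC0638 and 957 ± 79.2 in DMSO (log2 difference -0.30, limma adjusted p = 0.230). Pias1, a SUMO ligase, had 641 ± 67.6 in UNC0638 and 515 ± 67.6 in DMSO (log2 difference 0.31, limma adjusted p = 0.327). Chd3, a remodeller that binds Trim28, had a log2 difference of 0.14 (limma adjusted p = 0.542), and the median of the list was 0.066. The 3 PR-domain genes whose proteins were reported to methylate H3K9 had log2 differences of 0.22 for Prdm2, 0.10 for Mecom and -0.069 for Prdm16, and 0 passed the limma test; at an unadjusted p under 0.05 there were also 0.

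**Figure D4:**
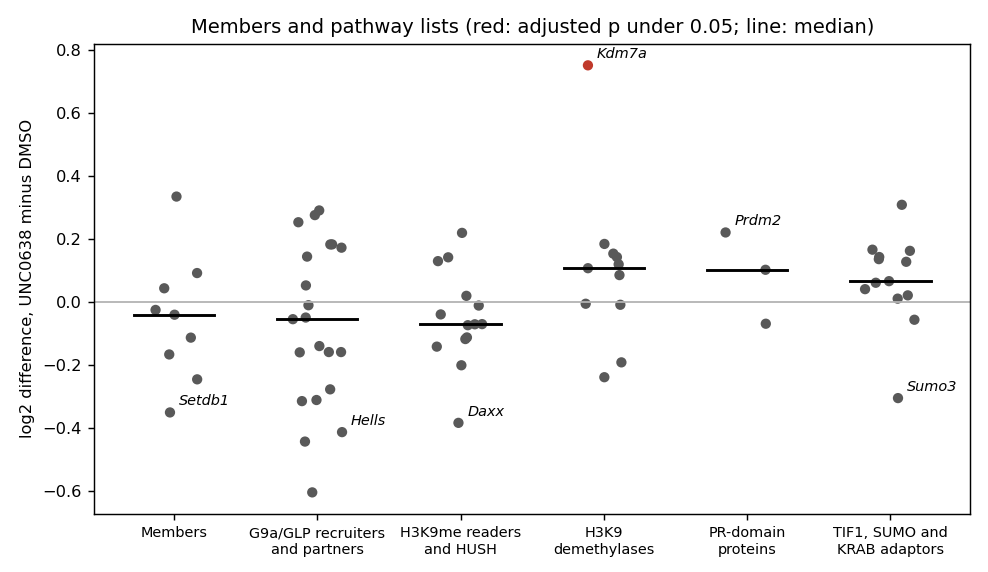
Log2 difference, UNC0638 minus DMSO, of the 9 members and of each measured gene of the 5 lists; lines are medians, red marks an adjusted p under 0.05 and the gene with the smallest p of each column is named. Kdm7a at 0.75 is the 1 gene that passed.

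Genes whose array-by-array pattern was most like that of a member were found by the root mean square difference of centred log2 profiles over the 6 arrays, among genes at least as bright as the median gene. For Ehmt2 these were Bcas2 (0.018), B3gat3 (0.034), Gigyf2 (0.036), Ybx3 (0.037) and Wdr5 (0.038). For Ehmt1 they were Plpbp (0.023), Rnf31 (0.026), Gpd1l (0.027), Parvb (0.030) and Chmp4b (0.031). For Setdb1 they were Snapc2 (0.020), Sf3a1 (0.035), Uqcrc1 (0.037), Ube2s (0.042) and Pfdn1 (0.044). With 6 arrays and 19937 genes such close profiles are easily found, and since likeness to a member fixes how these genes differ between the groups, no test of them is given.

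The genes next to the members on the chromosome, taken as the nearest measured gene on each side in the gene table, numbered 20. Of these, 0 passed the limma test, against 0.672% of all genes, and 2 had an unadjusted p under 0.05, against 12.7% of all genes. Beside Ehmt2, Zbtb12 had 43.3 ± 2.45 in UNC0638 and 52.8 ± 1.29 in DMSO (log2 difference -0.21, SE 0.075, limma adjusted p = 0.273). Slc44a4, on the other side, had a log2 difference of 0.025 (SE 0.11). The neighbours of Ehmt2 were named outside the rule given below. Zbtb12 was thus lower on every UNC0638 array than on any DMSO array, as were 7.40% of all genes, and its difference did not pass either. The other neighbour with an unadjusted p under 0.05 was Phf11c, beside Setdb2, named after its values were seen. It was higher in UNC0638 (log2 difference 0.26, SE 0.11, limma adjusted p = 0.364). Beside Setdb1, Arnt had a log2 difference of 0.051 (SE 0.12), and Cers2 is given above. Beside Atf7ip, E330021D16Rik had a log2 difference of -0.028 (SE 0.090) and Plbd1 of 0.36 (SE 0.20, limma adjusted p = 0.537).

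Markers of the labelled cells and of other cell types were read beside these results. The array gives no absolute call of presence, so the label was not settled from brightness. The progenitor marker Kit had 364 ± 64.5 in UNC0638 and 351 ± 7.66 in DMSO, and the myeloid granule enzyme Mpo had 6322 ± 148 in UNC0638 and 6031 ± 191 in DMSO. Of the markers, dimmer than the median gene were 0 of 6 for progenitors, 0 of 8 for myeloid cells, 3 of 3 measured for B cells, 3 of 3 measured for T cells, 1 of 3 measured for erythroid cells and megakaryocytes and 2 of 5 for stroma and epithelium.

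For 4 markers the log2 difference was larger in size than that of any member, although none passed the test. Ly6g, a surface protein of neutrophils, had 233 ± 8.67 in UNC0638 and 127 ± 40.1 in DMSO (log2 difference 0.83, limma adjusted p = 0.0923). The integrin Itgam had 1405 ± 5.08 in UNC0638 and 1018 ± 100.2 in DMSO (log2 difference 0.46, limma adjusted p = 0.0709). The macrophage growth factor receptor Csf1r had 793 ± 89.5 in UNC0638 and 550.2 ± 82.5 in DMSO (log2 difference 0.52, limma adjusted p = 0.120). The platelet chemokine Pf4 had 427 ± 103 in UNC0638 and 679 ± 137 in DMSO (log2 difference -0.66, limma adjusted p = 0.164). In all 4 the groups did not overlap, as in 17.0% of all genes, and these genes were named after their values were seen. Other markers of the same lists went both ways. In the myeloid list Prtn3 had a log2 difference of -0.16, Elane of -0.045 and Cebpa of -0.012, against 0.25 for Csf3r and 0.068 for Mpo. In the list of Pf4, Itga2b had 0.21 and Klf1 -0.079. None of the 28 measured markers passed the limma test, and 7 had an unadjusted p under 0.05, which 12.7% of all genes reached.

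Summed intensities of the 6 progenitor markers were 6607 to 6815 in UNC0638 and 5695 to 5912 in DMSO, so the groups did not overlap. Such a sum is weighted by its brightest genes and does not stand for each marker. The means of Cd34, Ptprc and Spi1 were higher by 21.2%, 19.4% and 14.0%, and those of Kit, Flt3 and Myb by 3.56%, 5.42% and 5.03%. For the 8 myeloid markers the sums, most of which came from bright granule genes, were 15752 to 17172 in UNC0638 and 15091 to 16580 in DMSO. For the 3 measured of 5 listed erythroid and megakaryocyte markers the sums were 531 to 722 in UNC0638 and 719 to 993 in DMSO. Pf4 made up most of them, with means of 427 in UNC0638 and 679 in DMSO. Itga2b went the other way, with 148 in UNC0638 and 127 in DMSO, and the dim Klf1 had 32.9 and 35.7. The sums of 5 markers of stroma and epithelium were 339 to 391 in UNC0638 and 302 to 367 in DMSO. Those of 3 B-cell markers were 79.2 to 99.4 in UNC0638 and 82.3 to 84.1 in DMSO, and those of 3 T-cell markers were 103 to 131 in UNC0638 and 103 to 104 in DMSO. The part of such shifts in the differences of Setdb1, Ehmt2, Trim28 and Atf7ip was not tested.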

How the data were processed

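Each probe set has 1 processed intensity on each of 6 arrays in the deposited table, on a linear scale by its range. How the authors summarised, background-corrected and normalized the arrays is not stated in the sources used here. Such steps can shrink differences between arrays, so 2 further scalings were tried. The arrays were hybridised with biotinylated cRNA, per the labels' protocols.

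Of 34760 probe sets, 21640 name 1 gene, 1321 several and 11799 none. Only the first kind was used, the brightest per gene, which gave 19937 genes. Symbols follow the platform annotation, and 21553 of the 21640 were found by Entrez number in a RefSeq gene table of GRCm38.p6, with 0 symbols changed. No columns were left unmapped.

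UNC0638 was compared with DMSO on log2(intensity + 16) in limma 3.58.1 (R 4.3.3), lmFit and eBayes on group alone over 6 arrays. P-values were adjusted by Benjamini-Hochberg across the 19937 genes and called under 0.05. Intervals are limma's at 95%. Partner ratios were tested by exact permutation over arrays, two-sided. The labels give no batch. The procedure was run on simulated data with independent noise on each array, so that run says nothing of arrays that share a culture.

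The members and lists were chosen with earlier results of these data known. Genes named are the members and, in each list, those past the threshold or else the 3 with the smallest p. Named too are markers and the 5 nearest patterns of Ehmt2, Ehmt1 and the member with the smallest p. The neighbours named by rule are those of the 2 members with the smallest p, Setdb1 and Atf7ip. Those of Ehmt2 were named outside that rule. Other genes are said to have been named after their values were seen. Of the 68 listed genes, 62 were measured, and the others are not reported here. Among them, Fam208a and Jhdm1d are older symbols of Tasor and Kdm7a, which were measured. Promoter sequences are RefSeq's, and all 10 genes matched. Alternatives were quantile normalization, median centring, leaving out the 40% dimmest genes, the mean of probe sets, every probe set tested, a replicate block, a trended and robust prior, pseudocounts of 1 and 64 and each array left out in turn. Plots used Python 3.11.15 and matplotlib 3.10.9.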

Additional observations from a re-analysis of the deposited data

How the results depend on the processing

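None of the 9 members passed the limma threshold in any of 15 alternatives. Their median log2 difference, -0.040 in the main setting, lay between -0.093 and -0.012 in the alternatives. It moved in each by less than 0.078, the pooled SD between arrays of the members' median. That SD is larger than the median itself, so it is a loose limit. Setdb1 lay between -0.42 and -0.29 (adjusted p from 0.14 to 0.366), Ehmt2 between -0.30 and -0.17 (0.233 to 0.575), Trim28 between -0.20 and -0.12 (0.303 to 0.654) and Atf7ip between 0.24 and 0.44 (0.209 to 0.524). Leaving out 1 array turned the sign of 3 genes near 0. Ehmt1 lay between -0.093 and 0.0061, Suv39h2 between -0.020 and 0.14 and Wiz between -0.070 and 0.049. The sign turned without DMSO replicate 2 for Ehmt1, without UNC0638 replicate 2 for Suv39h2 and without DMSO replicate 1 for Wiz. Over all genes, 134 passed, against 73 with the replicate block, 49 with a pseudocount of 64 and 10 to 69 with 1 array left out. The count was higher at 192 without the 40% dimmest genes, 182 with the trended and robust prior and 139 with the mean of probe sets. It was 127 with a pseudocount of 1, 125 with quantile normalization, 103 with median centring and 102 probe sets with every probe set tested. The count of demethylases past the threshold was 1, and 0 with the replicate block, 0 with a pseudocount of 64 and 0 to 1 with 1 array left out; the cause was not tested. The other 4 lists stayed at 0 in all alternatives. Groups that did not overlap numbered 3 among the members, 4 with quantile normalization, which added Atf7ip, and 3 with median centring. These 2 settings were chosen for that count after seeing the data. Over all genes the share was 17.0% in the main setting. It was not counted in the 2 other settings, so their counts have no background to be read against. Same-numbered arrays had correlated deviations of -0.066, 0.11 and 0.017, so the numbers were not taken as pairs. With the replicate block Setdb1 had an adjusted p of 0.168 and Ehmt2 of 0.327. The 3 arrays of each group limit what could be detected: a standard error of 0.080 to 0.12 on the log2 scale for the members.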
